A study of Homo sapiens with 6 samples.

Results

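Cytokines and chemokines are secreted or membrane-bound signals, and with their receptors they form the module described here, as transcribed by H460 lung cancer cells with and without fluoxetine. Its members are the rows of the deposited count table that the authors annotated to the pathway of cytokine-cytokine receptor interaction, without FAS and GDF15, and with at least 60 counts summed over the 6 libraries. Of the 31762 genes in the table, 218 carry that annotation. By this rule 106 of them were members, 110 fell below 60 counts, and 2 were left out by name. The members were thus chosen by their summed count, so their presence above that level is no result. Just inside the threshold were TNFRSF10C with 61 counts and IL7 with 64, and just outside it were GDF9 and IL13RA2 with 59 counts each. By their usual roles, 43 members are ligands, 62 are receptors (soluble and decoy receptors included), and 1 is neither. The exception is CERS1, a ceramide synthase whose locus also encodes the growth factor GDF1.

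H460 is an established human line from a large cell carcinoma of the lung, and the labels give its genotype as WT in every sample. Cells of 1 group were exposed to 20 µM fluoxetine, a selective serotonin reuptake inhibitor given as an antidepressant, for 24 h, and the other group was the control, with 3 libraries of total RNA in each. The labels do not say whether the control received a vehicle or whether the 3 libraries of a group came from separate cultures, so the p-values measure the spread between these libraries, which may be technical. All values are of 1 cell line at 1 dose and 1 time.

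Ligands of these families bind receptors on the same cell or on neighbouring cells, and each receptor class passes the signal on through its own relay. CXC and CC chemokines act on G protein-coupled receptors and attract leukocytes, and CXCL1, CXCL2, CXCL3, CXCL5 and CXCL8 draw mainly neutrophils. Receptors for IL-6 and for the hematopoietic cytokines work through Janus kinases and STAT factors, receptors of the TNF superfamily through adaptor proteins and NF-κB, and receptors of the TGF-β superfamily as pairs of type I and type II serine/threonine kinases that phosphorylate SMAD proteins. Lung cancer cells are known for secreting neutrophil-attracting CXC chemokines and IL-6, whose genes are NF-κB targets.

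The libraries held between 16157507 and 27823667 counts on genes, and every fluoxetine library was shallower than every control library. A count of 3, the limit that a count of 0 allows, was worth between 0.108 and 0.182 CPM (counts scaled to the library size with TMM factors), which covers counting error only. Of the epithelial markers, KRT8, KRT18 and KRT19 were high, with a summed level of all 5 markers between 3057 and 4027 CPM in the control and between 2689 and 3264 CPM with fluoxetine, whereas CDH1 had at most 1 count and EPCAM between 4 and 11 counts in a library. The 10 leukocyte markers summed to 2.09 to 2.66 CPM in the control and 2.56 to 3.22 CPM with fluoxetine, and 5 of them had no counts. Most of each sum was CD14, with a mean of 1.93 CPM in the control and 2.20 CPM with fluoxetine. In fluoxetine replicate 1, ITGAM and CSF1R had 9 and 7 counts. Endothelial markers stayed at or below 0.182 CPM in sum, and the 6 fibroblast markers summed to 30.5 to 32.7 CPM and 29.1 to 29.8 CPM. COL3A1 stood at 18.3 CPM in the control, COL1A1 at 4.62, LUM at 4.52 and PDGFRB at 4.24. COL1A2 had no more than 2 counts and DCN no more than 8 in a library. Single markers moved within these sums: KRT18 fell by 0.72 and COL3A1 by 0.53 on the log2 scale, and LUM rose by 0.88 (edgeR adjusted p = 0.00162, 0.0145 and 0.00448). The part of such cells in the results was not tested.

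A small group of CXC chemokines dominated the ligands. In the control, CXCL1 stood at 389 CPM per kb of exon, CXCL8 at 163, CXCL5 at 149, IL6 at 42.7 and CD70 at 39.1, the 5 highest ligand levels per length. CD70 is a TNF superfamily member that costimulates lymphocytes through CD27. Among receptors, the 5 highest levels per length were those of the TNF receptor TNFRSF1A at 44.6 CPM per kb, the TRAIL death receptor TNFRSF10B at 36.4, the type I TGF-β receptor TGFBR1 at 35.6, the TWEAK receptor TNFRSF12A at 35.4 and the oncostatin M receptor OSMR at 31.9. At the other end, 21 of the 43 ligands but 15 of the 62 receptors averaged under 5 CPM over the 6 libraries, levels at which a change is harder to detect.

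Of the 105 members that could be tested (TNFRSF10C was too low), 12 differed between the groups at an adjusted p-value under 0.05 by edgeR's quasi-likelihood test, which is 11.4% beside 13.1% of all 15646 genes tested. The share of members called was thus near that of all genes. Higher with fluoxetine were 7 members (6.67%), beside 7.76% of all genes tested, and all 7 were receptors (11.5% of the receptors tested). Lower were 5 members (4.76%), beside 5.32% of all genes tested, and 4 of them were ligands (9.30% of the ligands tested). No ligand was called higher by edgeR with the settings reported, by DESeq2 or by limma-voom. Other edgeR settings did call ligands higher: 5 with library size only, 2 with no filter on low counts and 7 with the replicate number as a block. It was 1 with at least 10 counts in every library and 1 without control replicate 3. At an unadjusted p-value under 0.05, 5 ligands were higher by edgeR, by DESeq2 and by limma-voom. At that unadjusted threshold 33 of the 105 members differed in either direction, beside 28.7% of all genes tested. The receptors that rose were ACVR1C, ACVR1 and TGFBR1 of the TGF-β superfamily, EPOR and CSF2RA of the hematopoietic receptors, IL6ST of the IL-6 family and TNFRSF19 of the TNF superfamily. The ligands that fell were the chemokines CXCL3, CXCL5, CCL20 and CCL2, and the receptor that fell was TNFRSF12A. With a fold change of at least 2 as a further criterion, which 1.39% of all genes tested met, ACVR1C (higher) and CCL2 (lower) were left.

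In 38 of the 105 members the groups did not overlap, with all fluoxetine libraries above the controls in 20 and below them in 18, or 36.2% beside 31.9% of all genes tested. Ligands made up 18 of the 38, with 8 above and 10 below, and receptors 20, with 12 above and 8 below. Over all tested genes 17.5% lay above and 14.4% below in this way. The median log2 fold change was 0.0073 for ligands and 0.069 for receptors, and 0.033 for all genes tested. The ligand median was -0.12 with at least 10 counts in every library and -0.14 for members with a summed count of at least 120.

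**Figure D1:**
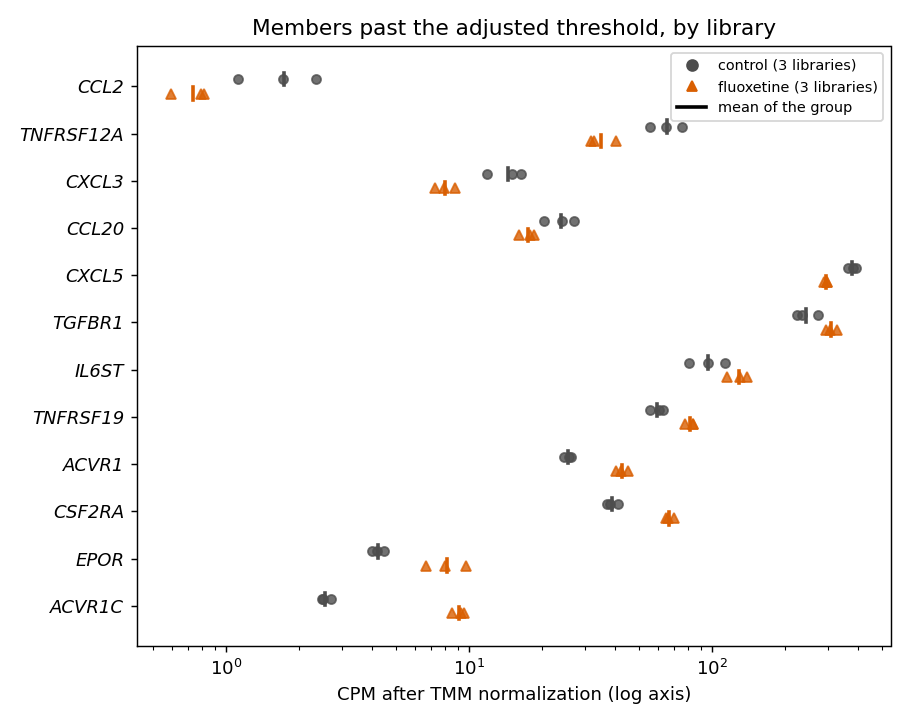
Level of the 12 members past the adjusted threshold in each library, in CPM after TMM normalization on a log axis, with control libraries as circles, fluoxetine libraries as triangles and a bar at the mean of each group. In none of the 12 do the groups overlap, and ACVR1C shows the widest separation, from 2.57 to 9.11 CPM.

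**Figure D2:**
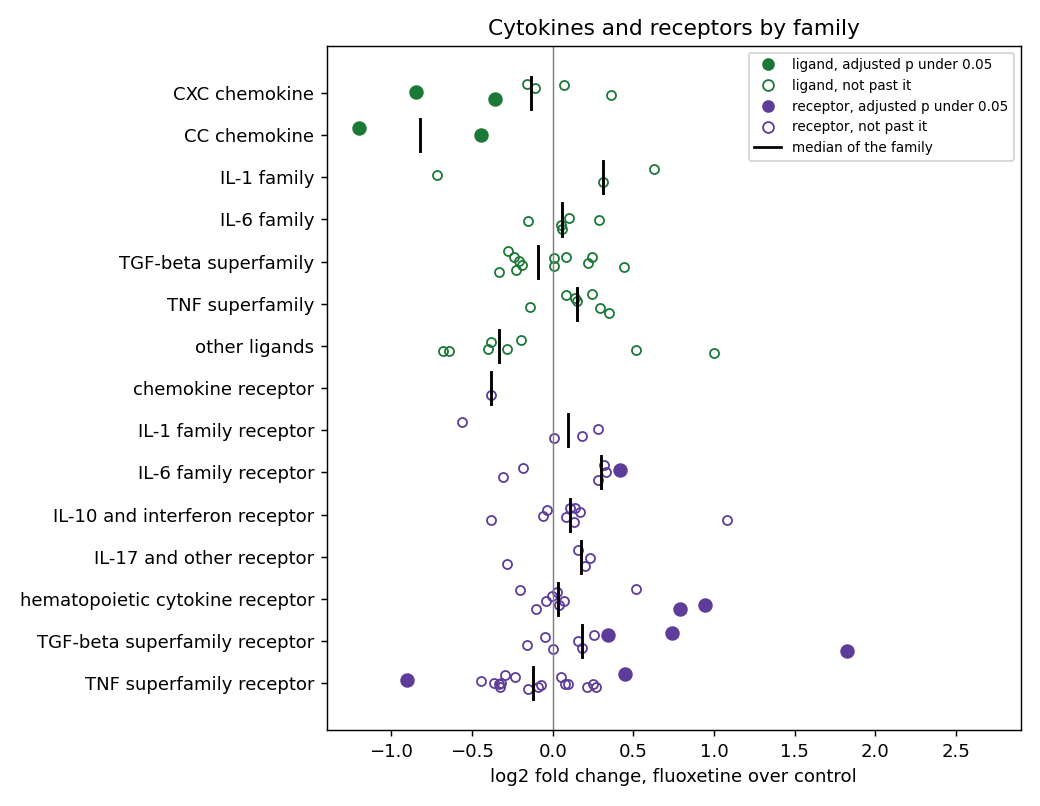
Log2 fold change of fluoxetine over control for each tested ligand (green) and receptor (purple), by family, with filled points past the adjusted threshold, open points not past it, and a bar at the family's median (CERS1 is not drawn). Filled points lie left of 0 for 2 CXC and 2 CC chemokines and right of 0 for 7 receptors, and TNFRSF12A is the filled receptor on the left.

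The CXC chemokine genes lie close together on chromosome 4, and their log2 fold changes had both signs. In the order CXCL8, CXCL1, CXCL5, CXCL3 and CXCL2 they span from 73740506 to 74099293, and the gap between CXCL3 and CXCL2 is 58227 bases. The letters of an NF-κB (κB) motif stand upstream of the RefSeq start of all 5, which is why their promoters are shown. The span above follows the count table, in which the starts of CXCL8 and CXCL2 differ from those in RefSeq. By that span, the motif of CXCL2 lies inside the gene as counted. The stretches below run from 140 to 21 bases before the start of each gene in RefSeq (build GRCh38.p14), 5′ to 3′ on the strand of the gene. Capitals mark the motif GGAATTTCC and, where 4 of the genes share them, the bases next to it.
CXCL8 (chr4:73740429-73740548, plus strand): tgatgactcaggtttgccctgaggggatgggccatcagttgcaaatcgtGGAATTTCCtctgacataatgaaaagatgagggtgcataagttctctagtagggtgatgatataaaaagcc
CXCL1 (chr4:73869253-73869372, plus strand): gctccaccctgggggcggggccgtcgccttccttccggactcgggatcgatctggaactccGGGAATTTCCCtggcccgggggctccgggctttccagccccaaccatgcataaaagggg
CXCL5 (chr4:73998698-73998817, minus strand): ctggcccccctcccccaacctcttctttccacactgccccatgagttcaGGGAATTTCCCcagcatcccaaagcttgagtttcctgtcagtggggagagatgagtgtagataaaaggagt
CXCL3 (chr4:74038710-74038829, minus strand): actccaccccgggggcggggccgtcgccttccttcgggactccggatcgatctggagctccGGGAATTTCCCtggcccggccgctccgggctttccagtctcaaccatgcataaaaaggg
CXCL2 (chr4:74099216-74099335, minus strand): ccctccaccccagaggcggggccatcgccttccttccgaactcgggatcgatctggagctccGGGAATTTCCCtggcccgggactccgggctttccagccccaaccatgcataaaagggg
The run GGGAATTTCCC of 11 bases is the same in CXCL1, CXCL2, CXCL3 and CXCL5, and CXCL8 holds only the 9 bases GGAATTTCC of it. The run began 79 bases before the start in CXCL1 and CXCL3, 78 in CXCL2 and 91 in CXCL5. On both strands, GGAATTTCC was found in 0.472% of 27305 promoters of 300 bases (250 before to 50 after the start). Among the 80 members with a promoter entry it was found in 6, the 5 genes of this cluster and IL18RAP. Only these exact letters were searched, so a promoter without them may hold another form of the κB motif. The share among the members rests on this cluster of paralogs and is no test of the other members. The E-box CACGTG was found in 7.43% of all promoters and 8 of the 80, and TGATGNAA, the core of C/EBP-ATF elements, in 3.67% and 3 of the 80, none of them a gene of this cluster. Over the full 300 bases, the promoter of CXCL3 was identical to that of CXCL1 in 82.5% of aligned columns and to that of CXCL2 in 73.8%.

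CXCL3, a neutrophil attractant, fell. Its level was 16.3, 15.1 and 11.8 CPM in the control libraries and 8.80, 7.26 and 7.86 CPM with fluoxetine. All fluoxetine libraries lay below all control libraries, and the log2 fold change was -0.85 (standard error, SE, 0.15, edgeR adjusted p = 0.00570), a 1.80-fold fall. CXCL5, which activates neutrophils through the same receptor, read 393, 363 and 379 CPM in the control and 298, 297 and 289 CPM with fluoxetine. The fluoxetine libraries were close to each other and below all controls, with a log2 fold change of -0.36 (SE 0.07, edgeR adjusted p = 0.00638). Both genes passed the threshold in each of 14 alternative settings, leave-one-out fits included.

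CXCL2, whose nearest member on the chromosome is CXCL3, read 37.6, 32.0 and 33.1 CPM in the control and 42.0, 49.7 and 40.2 CPM with fluoxetine. Here every fluoxetine library lay above every control library, but the log2 fold change of 0.36 had an adjusted p of 0.0533 (edgeR) and did not pass. It passed with library size only (adjusted p = 0.0411), with no filter on low counts (0.0453) and with the replicate number as a block (0.00212). The ratio of CXCL3 to CXCL2 in CPM was 0.434, 0.472 and 0.357 in the control libraries and 0.210, 0.146 and 0.196 in the fluoxetine libraries. Reads may be split between these paralogs: 5.00% of the 100-base windows of CXCL2 transcripts also occur in CXCL3, and 3.27% of those of CXCL3 in CXCL2. CXCL1, CXCL5 and CXCL8 shared no window of 100 bases with the others. Of the 50-base windows of CXCL2, 8.99% occur in CXCL3 and 3.88% in CXCL1, the more abundant gene, and none in CXCL5 or CXCL8.

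CXCL1 and CXCL8, the most abundant ligands per length, did not pass the test. CXCL1 read 575, 503 and 436 CPM in the control and 446, 488 and 420 CPM with fluoxetine, and the groups overlapped (log2 fold change -0.16, adjusted p = 0.339, edgeR). The interval of 2 standard errors around it ran from -0.36 to 0.04. Without control replicate 3, the lowest control library, it was -0.29 with an adjusted p of 0.0308. CXCL8, known as interleukin 8, read 377, 346 and 388 CPM in the control and 334, 353 and 345 CPM with fluoxetine, also with overlap, and its log2 fold change was -0.11 with an interval from -0.25 to 0.03. CXCL16, a transmembrane chemokine on chromosome 17, had a log2 fold change of 0.07 (adjusted p = 0.773), and it shares 85 exon bases with MED11. The shared receptor of the CXC chemokines of the chromosome 4 cluster, CXCR2, was next to absent. CXCR2 had 2, 3 and 1 counts in the control libraries and none with fluoxetine, and CXCR1 had 1 count in 1 fluoxetine library. These counts lie below the threshold for members.

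**Figure D3:**
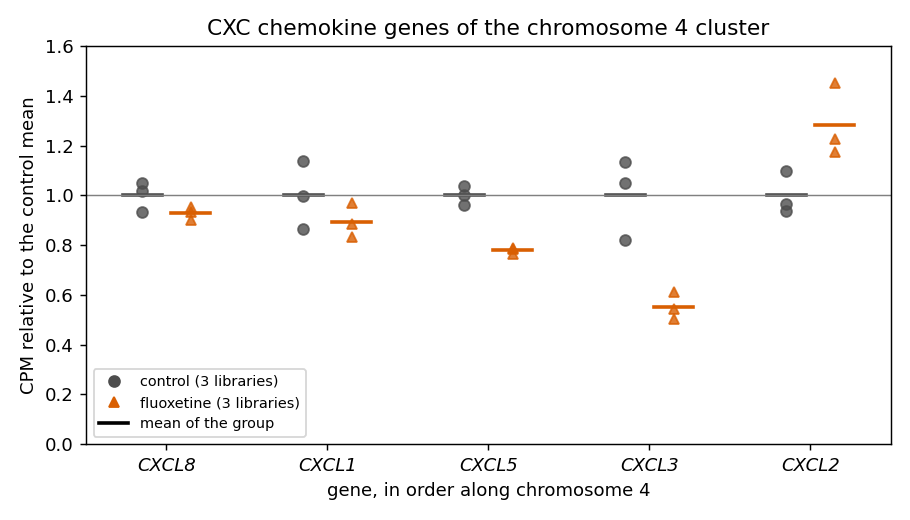
CPM of the 5 CXC chemokine genes of the chromosome 4 cluster in each library, divided by the mean of the gene's control libraries and drawn from left to right as they lie on the chromosome, with a bar at each group's mean. The fluoxetine libraries of CXCL3 and CXCL5 lie below all control libraries, those of CXCL2 above, and those of CXCL1 and CXCL8 overlap the control.

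Both CC chemokines among the members fell, at different strength of evidence. CCL20, which attracts CCR6-positive lymphocytes and dendritic cells, read 27.0, 20.4 and 24.1 CPM in the control and 17.9, 18.6 and 16.1 CPM with fluoxetine. The groups did not overlap, and the log2 fold change was -0.44 (SE 0.12, edgeR adjusted p = 0.0406). The call was lost without control replicate 1 (adjusted p = 0.108), fluoxetine replicate 1 (0.125) or fluoxetine replicate 3 (0.121). CCL2, the monocyte attractant, stood much lower, at 1.72, 2.34 and 1.12 CPM in the control and 0.789, 0.595 and 0.815 CPM with fluoxetine. These levels did not overlap, and CCL2 had the largest fall of the members, with a log2 fold change of -1.20 (SE 0.35, edgeR adjusted p = 0.0471), but it rested on 151 counts in all. Leaving out control replicate 1 or 2 gave adjusted p-values of 0.0986 and 0.149, and leaving out fluoxetine replicate 1, 2 or 3 gave 0.135, 0.0954 and 0.0945. Only without control replicate 3 did the call of CCL2 hold among these fits, and it was also lost with limma-voom (0.0838) and with library size only (0.0524).

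Of the 35 ligands that are not chemokines, none passed the test. An adjusted p under 0.1 was reached by 6, with positive values for TSLP, IL1B, IL1A and IL6 and negative values for IL18 and BMP5, and none of the 6 overlapped between the groups. IL6, which drives the acute phase response, read 95.7, 83.9 and 85.4 CPM in the control and 102, 120 and 102 CPM with fluoxetine. IL1A and IL1B, the alarm cytokines that signal through IL1R1, stood at 19.1 ± 0.667 and 3.59 ± 0.666 CPM in the control and at 23.8 ± 1.03 and 5.52 ± 0.740 CPM with fluoxetine (SD, n = 3). In all 3 genes every fluoxetine library lay above every control library, and the log2 fold changes were 0.29, 0.31 and 0.63 (edgeR adjusted p = 0.0622, 0.0563 and 0.0530). Each passed with library size only, and IL1B also with no filter on low counts. With the replicate number as a block, all 3 passed (adjusted p = 0.00734, 0.0216 and 0.00403).

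The largest positive value among the ligands was that of TSLP, an epithelial cytokine that acts on dendritic cells. It read 0.544, 0.573 and 0.756 CPM in the control and 1.34, 1.37 and 1.11 CPM with fluoxetine. Its groups did not overlap, but with 108 counts in all the log2 fold change of 0.997 had an SE of 0.30 and an adjusted p of 0.0526 (edgeR). The adjusted p was 0.0379 with at least 10 counts in every library, 0.0495 with library size only and 0.0499 without control replicate 3. It was 0.0369 with the replicate number as a block. The next largest absolute value after CCL2, TSLP and CXCL3 was that of IL18, an IL-1 family cytokine that induces interferon-γ, with 4.42 ± 0.402 CPM in the control and 2.70 ± 0.930 CPM with fluoxetine (SD, n = 3), a log2 fold change of -0.72 and an adjusted p of 0.0708 (edgeR). IL18 passed with DESeq2 (0.0444), with no filter on low counts (0.00661) and with the replicate number as a block (0.00315). BMP5, a bone morphogenetic protein, read 12.8, 11.7 and 13.1 CPM in the control and 10.0, 10.3 and 9.55 CPM with fluoxetine, with a log2 fold change of -0.34 (edgeR adjusted p = 0.0838).

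The receptor with the largest log2 fold change belongs to the TGF-β superfamily. ACVR1C (ENSG00000123612, chromosome 2, 157526767 to 157629005, minus strand), also called ALK7, is a type I receptor for activin B, growth and differentiation factors and Nodal. It read 2.49, 2.50 and 2.70 CPM in the control and 8.50, 9.28 and 9.55 CPM with fluoxetine. Each fluoxetine library was thus more than 3 times as high as any control library, and the log2 fold change was 1.82 (SE 0.14, edgeR adjusted p = 3.53e-05), a 3.54-fold rise and the largest of the members. Even so its level per length stayed low, at 0.279 CPM per kb in the control and 0.991 CPM per kb with fluoxetine.

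ACVR1 (ALK2), a type I receptor for bone morphogenetic proteins and activins, lies 107438 bases from ACVR1C on the same strand, and it rose as well. Its level was 24.6, 26.4 and 25.8 CPM in the control and 40.2, 45.4 and 42.4 CPM with fluoxetine. The groups were far apart relative to their spread, with a log2 fold change of 0.74 (SE 0.09, edgeR adjusted p = 7.73e-04). ACVR1C and ACVR1 passed in all 14 alternative settings. The ratio of ACVR1C to ACVR1 in CPM lay between 0.0949 and 0.105 in the control libraries and between 0.204 and 0.225 with fluoxetine.

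TGFBR1 (ALK5), the type I receptor of TGF-β itself, read 225, 234 and 273 CPM in the control and 307, 294 and 326 CPM with fluoxetine. Its lowest fluoxetine library lay above its highest control library, and the log2 fold change was 0.34 (SE 0.09, edgeR adjusted p = 0.0278). This call was lost without control replicate 1 (adjusted p = 0.131), control replicate 2 (0.163), fluoxetine replicate 1 (0.132) or fluoxetine replicate 3 (0.146). The other type I receptors read much the same in both groups: ACVR1B (ALK4) stood at 24.9 ± 0.559 and 24.1 ± 1.57 CPM, with an interval of its log2 fold change from -0.24 to 0.15, and BMPR1A at 41.3 ± 2.43 and 41.4 ± 1.58 CPM, with an interval from -0.17 to 0.17. The type II receptors TGFBR2, ACVR2A, ACVR2B and BMPR2 had log2 fold changes of 0.15, 0.18, -0.16 and 0.26, none past the threshold. Of the 9 receptors of this superfamily, 3 rose and none fell, beside 7.76% of all genes tested that rose and 5.32% that fell, and the call of TGFBR1 was lost when any 1 of 4 libraries was left out. Their median log2 fold change was 0.18. ACVR2A, with 755 counts, shares 430 exon bases with ORC4 on the opposite strand, which had 5952 counts.

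None of the 12 TGF-β superfamily ligands passed, and 6 had positive and 6 negative values around a median of -0.09. TGFB1 read 43.1, 37.6 and 29.1 CPM in the control and 32.1, 33.6 and 30.5 CPM with fluoxetine, within the spread of the controls. Its log2 fold change was -0.19 (edgeR adjusted p = 0.406) and -0.37 without control replicate 3, with an adjusted p of 0.0201. TGFB1, with 4095 counts, shares 215 exon bases with HNRNPUL1 on the opposite strand, which had 22331 counts and a log2 fold change of -0.21. TGFB2 and TGFB3 had log2 fold changes of 0.08 and -0.24. INHBA, whose product forms activin A, stood at 15.8 ± 1.76 CPM and 18.8 ± 0.818 CPM (SD, n = 3), with a log2 fold change of 0.24 and an adjusted p of 0.191. BMP6, a ligand of ACVR1, had a log2 fold change of -0.28 (adjusted p = 0.161) and BMP7 one of -0.21 (adjusted p = 0.694). Nodal, a ligand of ACVR1C, was below the threshold for members with at most 2 counts in any library. INHBB, the gene of activin B, was also below it, with at most 5. GDF11, a growth and differentiation factor among the members, had a log2 fold change of 0.0073 with an interval from -0.18 to 0.20.

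**Figure D4:**
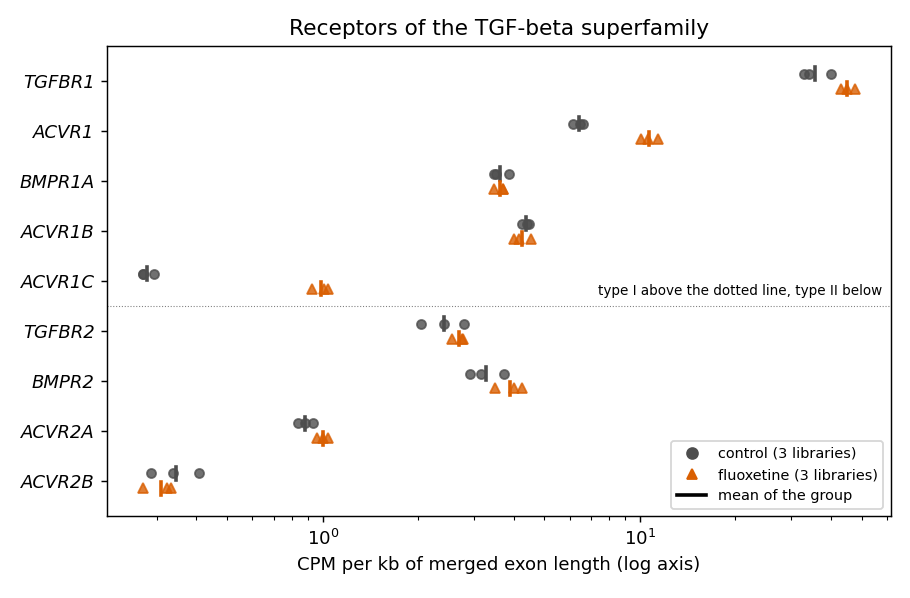
Level of the 9 TGF-β superfamily receptors in each library, in CPM per kb of merged exon length on a log axis, with type I receptors above the dotted line and type II receptors below it, and a bar at each group's mean. ACVR1C moves from 0.279 to 0.991 CPM per kb and ACVR1 from 6.41 to 10.7 CPM per kb, while BMPR1A and ACVR1B overlap between the groups.

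Of the 10 hematopoietic cytokine receptors, 2 rose, beside 7.76% of all genes tested. CSF2RA, the ligand-binding chain of the GM-CSF receptor (ENSG00000198223, chromosome X, 1268800 to 1310381, plus strand, in the pseudoautosomal region), read 41.0, 36.9 and 38.2 CPM in the control and 64.6, 69.7 and 66.2 CPM with fluoxetine. No control library came near the fluoxetine libraries, and the log2 fold change was 0.79 (SE 0.08, edgeR adjusted p = 2.56e-04), a 1.73-fold rise. Its signalling partner CSF2RB had 1 count in 1 fluoxetine library and none elsewhere, and its ligand CSF2 had at most 3 counts in any library. The nearest receptor genes on either side had different values. CRLF2, the TSLP receptor chain, lies 56049 bases away and read 5.35, 3.80 and 3.93 CPM in the control and 6.44, 6.07 and 6.23 CPM with fluoxetine, without overlap but with an adjusted p of 0.0690 (log2 fold change 0.52, edgeR). It passed without control replicate 1 (0.0477) and with the replicate number as a block (0.0103). IL3RA, 26234 bases away on the other side, stood at 1.16 ± 0.135 and 1.15 ± 0.242 CPM (SD, n = 3).

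EPOR, the erythropoietin receptor (ENSG00000187266, chromosome 19, 11377205 to 11384342, minus strand), read 3.99, 4.48 and 4.18 CPM in the control and 7.95, 9.75 and 6.64 CPM with fluoxetine. The fluoxetine libraries spread more widely than the controls but lay above all of them. Its log2 fold change was 0.94 (SE 0.17, edgeR adjusted p = 0.00582), a 1.93-fold rise, and the call held in all 14 alternative settings. EPOR shares 2 exon bases with RGL3 on the same strand, whose log2 fold change was -0.02. Erythropoietin itself (EPO) had at most 3 counts in any library.

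IL6ST, or gp130, the signalling chain shared by the receptors of IL-6, LIF, oncostatin M and related cytokines, read 80.4, 96.3 and 113 CPM in the control and 131, 116 and 139 CPM with fluoxetine. The highest control library came close to the lowest fluoxetine library without overlapping it. The log2 fold change was 0.42 (SE 0.12, edgeR adjusted p = 0.0454), and the call was lost without control replicate 1 (adjusted p = 0.166), control replicate 2 (0.177), fluoxetine replicate 1 (0.189) or fluoxetine replicate 3 (0.169). Its partner chains had positive values that did not pass: the log2 fold change was 0.28 for OSMR, 0.33 for LIFR and 0.32 for IL6R (adjusted p = 0.0977, 0.174 and 0.197). Their groups overlapped, and control replicate 3 was the highest control library in IL6ST, LIFR and OSMR. Without it LIFR (0.0135) and OSMR (0.0218) also passed, while IL6R passed without fluoxetine replicate 2 (0.0436). LIFR (0.0222) and OSMR (0.0420) passed with no filter on low counts too. With the replicate number as a block, LIFR (6.29e-04), OSMR (0.00465) and IL6R (0.0197) passed. OSMR shares 229 exon bases with RICTOR on the opposite strand. IL27RA, a receptor that binds IL-27 together with gp130, had a log2 fold change of -0.31 (adjusted p = 0.0926).

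Ligands of gp130 receptors did not pass. LIF, known for keeping stem cells undifferentiated, read 87.6, 86.3 and 83.5 CPM in the control and 88.6, 92.7 and 95.1 CPM with fluoxetine, just without overlap, with a log2 fold change of 0.10 and an interval from -0.04 to 0.25. CLCF1, CTF1 and CNTF had log2 fold changes of -0.15, 0.05 and 0.06, and oncostatin M (OSM) was below the threshold for members with at most 7 counts in any library.

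In the TNF superfamily, the largest difference was the fall of TNFRSF12A, or Fn14, the receptor of TWEAK (ENSG00000006327, chromosome 16, 3018445 to 3022383, plus strand). It read 75.7, 64.8 and 55.7 CPM in the control and 32.8, 40.3 and 31.7 CPM with fluoxetine. Even the highest fluoxetine library lay well below the lowest control library, and the log2 fold change was -0.90 (SE 0.13, edgeR adjusted p = 0.00190), a 1.87-fold fall that held in all 14 alternative settings. Per length it went from the same level as TGFBR1, at 35.4 CPM per kb, to 18.9 CPM per kb. Its ligand TWEAK, encoded by TNFSF12, stood at 1.46 ± 0.428 CPM in the control and 1.31 ± 0.281 CPM with fluoxetine (SD, n = 3), with a log2 fold change of -0.14 (adjusted p = 0.805).

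TNFRSF19, also called TROY, an orphan receptor of the same superfamily, rose. Its level was 60.5, 55.6 and 63.1 CPM in the control and 83.7, 77.4 and 83.8 CPM with fluoxetine. The groups were clearly apart, with a log2 fold change of 0.45 (SE 0.08, edgeR adjusted p = 0.00614), and the call was lost without control replicate 2 (adjusted p = 0.0579) or fluoxetine replicate 1 (0.0606). The abundant death domain receptors did not pass the test. TNFRSF1A read 184, 188 and 164 CPM in the control and 182, 195 and 188 CPM with fluoxetine, and TNFRSF10B read 179, 199 and 186 CPM and 190, 189 and 205 CPM. Their log2 fold changes were 0.08 and 0.05, with intervals from -0.07 to 0.23 and from -0.09 to 0.20, and TNFRSF10B shares 67 exon bases with RHOBTB2. Over the 18 receptors of this superfamily that were tested, 7 had positive and 11 negative values, with a median of -0.12. TNF itself had a single count in 1 control library.

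None of the 7 TNF superfamily ligands passed, although 6 had positive values. CD70 read 65.3, 69.7 and 44.6 CPM in the control and 70.1, 77.6 and 64.1 CPM with fluoxetine. The groups overlapped, control replicate 3 was lowest of all, and the log2 fold change of CD70 was 0.24 (edgeR adjusted p = 0.326). It passed with the replicate number as a block (0.0224). CD27, its receptor, was below the threshold for members with at most 10 counts in any library.

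The remaining receptor families held no call. Of the 9 receptors for interferons and IL-10 related cytokines, 6 had positive and 3 negative values, and 8 of them lay between -0.38 and 0.17 on the log2 scale. The exception was IL10RA, the ligand-binding chain for IL-10, with 0.862, 0.834 and 0.324 CPM in the control and 1.34, 1.31 and 1.51 CPM with fluoxetine. The groups did not overlap, but with 114 counts in all the log2 fold change of 1.08 had an SE of 0.37 and an adjusted p of 0.0824 (edgeR). IL10RA passed with no filter on low counts (0.0475), with libraries thinned to equal depth (0.0484) and with the replicate number as a block (0.0157). IL1R1, the receptor for IL1A and IL1B, had a log2 fold change of 0.28 (adjusted p = 0.121). It passed without control replicate 3 (0.0376) and with the replicate number as a block (0.0176). The only chemokine receptor among the members was CCR3, with 67 counts in all, and its log2 fold change was -0.38 (adjusted p = 0.583).

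Ligands and receptors were also set side by side as summed levels per library. The 43 ligands together took 1964, 1811 and 1763 CPM in the control and 1690, 1796 and 1663 CPM with fluoxetine, with overlap. CXCL1, CXCL5 and CXCL8 made up 66.9% to 68.5% of that sum in the control libraries and 63.4% to 63.8% with fluoxetine. Their own sum was 1345, 1212 and 1204 CPM in the control and 1078, 1138 and 1054 CPM with fluoxetine, without overlap, whereas the other 40 ligands summed to 619, 599 and 559 CPM and to 612, 658 and 608 CPM, with overlap. The 62 receptors took 2011, 2138 and 2214 CPM in the control and 2414, 2344 and 2481 CPM with fluoxetine. All fluoxetine libraries lay above all controls here, at a ratio of the means of 1.14. The ligand sum divided by the receptor sum was 0.977, 0.847 and 0.796 in the control and 0.700, 0.766 and 0.670 with fluoxetine. In bulk RNA, a smaller share of cells that transcribe a gene and less RNA of it per cell cannot be told apart.

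Gene length differs between the classes and moves with these values. The ligands tested had a median exon length of 2780 bases and the receptors of 4548 bases, beside 4487 for all genes tested. Split into 3 equal groups by length, the longest genes of the whole table had a median log2 fold change of 0.10 and the shortest of -0.01, and the same split separated control replicate 3 from control replicate 1 by medians of 0.13 and -0.09. With the trend of the log2 fold change over length removed, a step added after seeing the data, the medians were -0.0017 for ligands and 0.074 for receptors. The part of length in the summed levels was not tested.

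**Figure D5:**
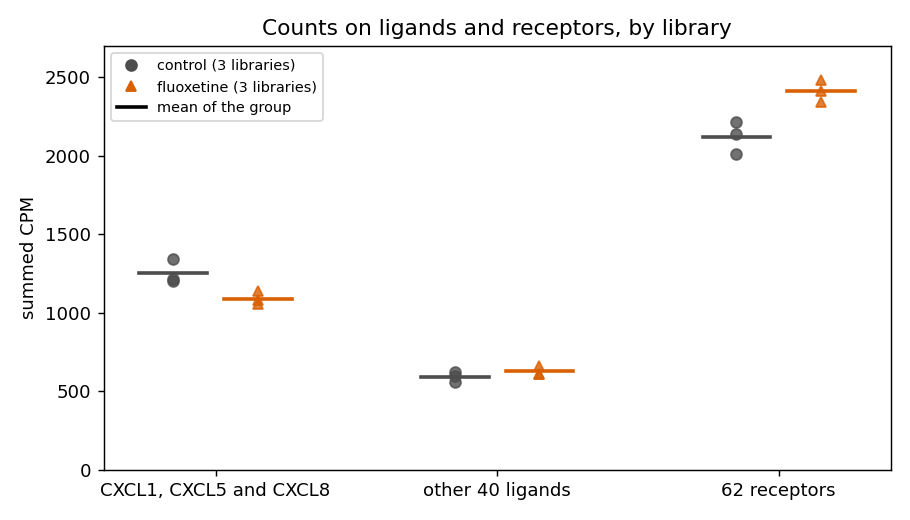
Summed CPM of CXCL1, CXCL5 and CXCL8, of the other 40 ligands and of the 62 receptors in each library, on a linear axis from 0, with circles for control, triangles for fluoxetine and a bar at each group's mean. The sum of the 3 chemokines is lower and that of the receptors higher in every fluoxetine library than in any control library.

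Genes that relay or restrain these signals were counted on lists written from general knowledge. Over all genes tested, 7.76% rose and 5.32% fell, and each list is to be read beside these shares. Of 24 tested genes of the JAK-STAT relay and its SOCS feedback, 4 rose and none fell. They include the transcription factors STAT6, at 218 ± 3.33 CPM in the control and 277 ± 4.05 CPM with fluoxetine (SD, n = 3), and STAT5B, and the feedback inhibitor SOCS3, with log2 fold changes of 0.35, 0.32 and 0.39 (adjusted p = 0.00622, 0.0414 and 0.0260, edgeR). The other was STAT3, the main factor below gp130, at 0.32 (adjusted p = 0.0422). Of 27 tested genes of the NF-κB relay, 3 rose and 2 fell. TNFAIP3, or A20, which switches NF-κB signalling off, read 132, 142 and 142 CPM in the control and 232, 204 and 243 CPM with fluoxetine. Its groups were far apart, with a log2 fold change of 0.71 (SE 0.08, edgeR adjusted p = 5.32e-04). MAP3K14, the kinase NIK of the non-canonical pathway, fell by 0.46 (adjusted p = 0.0179), and IRAK2, a kinase below the IL-1 receptor, rose by 0.48 on the log2 scale (adjusted p = 0.0350). NFKBIA, which encodes the NF-κB inhibitor IκBα, fell by 0.36 (adjusted p = 0.0411), and TAB3, an adaptor of the kinase TAK1, rose by 0.48 (adjusted p = 0.0408).

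On the SMAD list, 2 of 19 tested genes rose and none fell: the inhibitory SMAD6, from 8.32 ± 0.626 to 13.7 ± 1.49 CPM (SD, n = 3), by 0.72, and the corepressor TGIF1, by 0.31 on the log2 scale (adjusted p = 0.00626 and 0.0377, edgeR). Of 15 TNF receptor adaptors and death signalling genes, CFLAR, which encodes the caspase-8 inhibitor FLIP, rose by 0.34 (adjusted p = 0.0336), and none fell. Of 16 genes for cytokine shedding and processing, 1 rose, FST for the activin binder follistatin, by 0.29 (adjusted p = 0.0473). Of 26 tested interferon-stimulated genes, 2 rose and 2 fell. The immunoproteasome subunit PSMB9 and the antiviral gene OASL had log2 fold changes of -0.56 and -1.03, and IFI35 one of 0.39 (adjusted p = 0.0175, 0.0297 and 0.0297). IFIT3 rose by 0.48 (adjusted p = 0.0356). The shares called on the 6 lists ran from 6.25% to 18.5%, beside 13.1% of all genes tested (7.76% higher and 5.32% lower). Of the 13 genes with the smallest p-values on these lists, at most 3 a list, TNFAIP3 alone stayed past the threshold in all 14 alternative settings. The other 12 lost the call when 1 library or another was left out, with adjusted p-values of up to 0.244.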

How the data were processed

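Total RNA of H460 cells was sequenced in 3 control libraries and 3 libraries of cells given 20 µM fluoxetine for 24 h, grouped by their labels. The submitters' processing notes name fastp 0.20.0, HISAT2 2.1.0, HTSeq 0.10.0 and DESeq2 1.18.1, without their order. The genome build, the annotation and whether strand was used in counting are not given in the sources used here. The table that the authors deposited gives a raw, unnormalized count for 31762 genes, 1 column per library. Its other columns with results of the authors' own comparison (log2 fold changes and both kinds of p-value) were not used. All 106 member IDs were found in GENCODE release 29, 103 with the same start and end, and exon lengths came from that release. Promoter sequences came from RefSeq (GRCh38.p14). CXCL16, TNFRSF12A and CCL2 had no promoter entry.

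The members, their roles and the lists were chosen with earlier results of these data known. In R 4.3.3, the counts were tested with edgeR 4.0.16 (filterByExpr, TMM factors of 0.985 to 1.02, glmQLFit and glmQLFTest, no covariate, Benjamini-Hochberg over the 15646 genes kept), and a gene was called at an adjusted p under 0.05. The biological coefficient of variation was 0.107. Counts of libraries of the same group differed by more than sampling noise (chi-square per degree of freedom of 3.72 to 24.2), and all 6 were kept. Between groups this value ran from 22.8 to 52.0. Control replicates 1 and 3, at 24.2, thus differed by more than control replicate 2 and fluoxetine replicate 2, at 22.8. With 3 libraries against 3, an exact permutation test of a single value cannot give a p below 0.1. Alternatives were DESeq2 1.42.0, limma-voom 3.58.1, RLE factors, library size only, no filter, a minimum of 10 counts per library, a block for the replicate number, thinning to 16157507 counts, a 2-fold minimum, summed counts of at least 30 or 120, and leaving out each library. Removing the trend with transcript length was added after seeing the data, and 99.8% of tested genes had a length.

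Genes named are the members called, the 5 ligands and 5 receptors highest per length, the 3 of each with the largest absolute log2 fold change, members at the count threshold, partners of called members, and up to 3 called genes of each list by smallest p. CXCL2, CXCL16, IL1A, IL1B, IL18, BMP5, GDF11, IL1R1, IL18RAP, ACVR1B, BMPR1A, BMPR2, CRLF2, IL3RA, IL27RA, CCR3, CERS1, STAT3, NFKBIA, TAB3, IFIT3, the cell type markers and genes below the count threshold were named outside that rule, after their values were seen. Of 15 members, an overlapping gene that shares exon bases held more than 10% of their counts, and they count as uncertain (OSMR, TNFRSF10B, TGFB1, IFNGR2, CXCL16, LEPR, ACVR2A, EPOR, BMP8B, IL11RA, IL17RB, IL20RB, TNFRSF25, IL17D and IL7). The scripts were tested on data simulated with a common dispersion for all genes. There edgeR called 30 of 49 planted 1.5-fold changes and 45 of 50 planted 2-fold changes.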

Additional observations from a re-analysis of the deposited data

How the results depend on the processing

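The counts of members called moved with the settings, and for ligands so did the split by direction. Higher and lower calls were 7 and 5 as reported, and 0 and 4 for ligands. With library size only 12 members were higher, 5 of them ligands, and with no filter on low counts 12 were higher, 2 of them ligands, while the receptor median became 0.0237. With at least 10 counts in every library 1 ligand was higher and the ligand median was -0.12. That median was -0.14 for members with a summed count of at least 120 and -0.054 with libraries thinned to equal depth. With a 2-fold minimum, 1 member was higher (a receptor) and 1 lower (a ligand), and 0 receptors were lower.

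Leaving out 1 library at a time gave 4 to 13 members higher and 3 to 9 lower. For ligands these ranges were 0 to 1 and 2 to 6, and for receptors 4 to 12 and 1 to 3. The class medians ran from -0.11 to 0.0070 for ligands and from 0.0020 to 0.053 for receptors. Both highest totals, 13 and 9, came without control replicate 3, and the lowest number of higher calls, 4, came without control replicate 2 or fluoxetine replicate 1. The cause was not tested. ACVR1C, ACVR1, CSF2RA, EPOR, CXCL3, CXCL5 and TNFRSF12A were called in all 14 alternatives, TNFRSF19 in 12, CCL20 in 11, TGFBR1 and IL6ST in 10, and CCL2 in 7.

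With the replicate number as a block, 23 members were higher and 9 lower, with 7 ligands and 16 receptors among the higher and 6 ligands and 3 receptors among the lower. The numbers were not taken to pair the libraries, since they are not said to mark a shared batch. Deviations of same-numbered libraries from their group means correlated at 0.0068, 0.164 and 0.475 across genes. Fluoxetine replicate 2 correlated better with control replicate 1 (0.391), and the remaining pairs of unlike number ran from -0.459 to 0.0187. With 3 libraries in a group, these correlations do not settle whether the libraries were paired.

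Of the genes named, 59 were followed over the alternative settings. BMP5, GDF11, BMPR1A, BMPR2, CXCL16, IL3RA, IL27RA and CCR3 were not. Neither were STAT3, NFKBIA, TAB3 and IFIT3, so how far their calls hold was not tested. The sign changed with thinning for CTF1 (-0.22). Without 1 library it changed for CTF1 (range -0.18 to 0.18), CNTF (-0.014 to 0.071), TGFB2 (-0.012 to 0.13), TNFRSF10B (-0.019 to 0.054), TNFRSF1A (-0.015 to 0.077) and TNFSF12 (-0.40 to 0.046), none of which was called. Apart from these, 65 of the leave-one-out fits of the 59 genes lost a call and 8 gained one. Under other settings 13 fits lost a call and 27 gained one. At 16157507 to 27823667 counts per library, members with a control mean under 5 CPM had standard errors of the log2 fold change of up to 0.46, which limits what could be called.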

Other observations

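Of the 110 pathway genes with 1 to 59 counts, which were too low to be members or to be tested in the fit reported, 14 did not overlap between the groups in CPM, 9 higher and 5 lower with fluoxetine. That is 12.7%, beside 6.57% of all 16001 genes with 1 to 59 counts, whose counts were not matched to those of the pathway genes. The 3 with the most counts, named after their values were seen, were CCL5, CD4 and IL21R. CCL5, which attracts T cells and monocytes, had 11, 7 and 27 counts in the control libraries and 1, 1 and 4 with fluoxetine. CD4, the coreceptor of helper T cells, had 2, 3 and 7 counts in the control and 8, 6 and 11 with fluoxetine. IL21R, the receptor of interleukin 21, had 1, 0 and 0 counts in the control and 8, 16 and 8 with fluoxetine. The fluoxetine libraries held fewer counts in total than the controls, so a lower count alone is not a lower level.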
